A study of Bos taurus with 6 samples.

Results

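The inhibitor of DNA binding (ID) genes ID1, ID2, ID3 and ID4 and the E protein genes TCF3, TCF4 and TCF12 were followed in metaphase II oocytes of cattle, eggs arrested before fertilization after maturation in culture. These 7 genes were picked by symbol from the 17325 genes measured. They were selected on the measured abundance of ID3, one of the highest FPKM values in these libraries, and completed with its family and partners, so the level of ID3 is given as a description with no test. RNA was sequenced from 3 libraries labelled NC (negative control) and 3 labelled siMTFP1 (knockdown of MTFP1, whose product sits in the mitochondrial inner membrane and takes part in fission). The design compares those 2 groups, and the labels give no breed, age, dose or number of oocytes per library and do not say whether replicates came from separate cultures or animals. The p-values therefore measure only the spread between these libraries, which can be technical.

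E proteins are basic helix-loop-helix (bHLH) transcription factors that bind a short DNA element, the E-box, as pairs with each other or with tissue-specific bHLH factors. ID proteins carry the helix-loop-helix but lack the basic region that contacts DNA, so a pair of an ID protein and an E protein does not bind. ID genes are classical targets of bone morphogenetic protein (BMP) signalling through SMAD proteins. In the oocyte the bHLH factor FIGLA is known to pair with the TCF3 product on E-boxes of zona pellucida genes.

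Levels are FPKM, read fragments counted per kilobase of transcript and relative to all mapped fragments, so they can be set side by side between genes. A library's FPKM values summed to between 784366 and 892790.4, and sequencing depth is unknown. The targeted gene MTFP1 was at 0.377 ± 0.283 FPKM (SD, n = 3) in the libraries labelled NC and 0.720 ± 0.380 in those labelled siMTFP1. It was not lower in the latter (log2 difference 0.32, exact two-sided permutation test, p = 0.4, smallest possible p 0.1), so every direction given here is that of the labels. All 14 oocyte markers were above 0 in every library, with a summed level of 28496 to 30895 FPKM. Of 24 cumulus and granulosa markers 19 to 22 were above 0 per library, and their sum was 166.7 to 196.3 FPKM in the libraries labelled NC and 189.7 to 228 in those labelled siMTFP1. STAR (54.5 to 72.6 FPKM) and HAS2 (33.8 to 49.9) were its highest members in each library. SERPINE2 ranged from 13.3 to 43.1 FPKM, INHA from 0.65 to 15.65, CYP11A1 from 0.11 to 13.43 and HSD3B1 from 0.3 to 7.51, and FSHR (at most 0.02), FOXL2 (at most 0.08) and CYP19A1 (at most 0.24) were near 0. Endothelial markers summed to 2.59 to 4.22 FPKM, leukocyte markers to 1.89 to 4.96 and erythrocyte markers to 36.18 to 91.17, the last almost all from alpha globin genes.

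ID3 was one of the most abundant transcripts of these oocytes and varied little between libraries. Its FPKM was 14600.3, 14298 and 14775 in NC 1, 2 and 3 and 14218, 16702 and 15263 in siMTFP1 1, 2 and 3. The library labelled siMTFP1 2 was the highest and siMTFP1 1 the lowest, so the groups overlapped. ID3 held rank 4 in each of the 6 libraries and took 1.70% to 1.99% of the FPKM sum. The genes above it by mean level were TMSB4X (a thymosin that binds actin), PTTG1 (securin) and CKS1B (a subunit of cyclin-dependent kinases), and the gene directly below was OOSP2, an oocyte-secreted protein. These neighbours in the abundance order were named after their values were seen. OOSP2 averaged 11031 ± 1009 FPKM (SD over the 6 libraries) against 14976 ± 925 for ID3. The coefficient of variation over the 6 libraries was 6.18% for ID3, and it was 9.15% to 16.5% for the other 7 of the 8 genes with the highest mean. In the RefSeq gene order of the assembly ARS-UCD2.0, the next protein-coding gene on one side of ID3 is E2F2, a regulator of the cell cycle. E2F2 lay between 0.32 and 1.06 FPKM, so the abundance of ID3 was not shared by that neighbour.

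**Figure D1:**
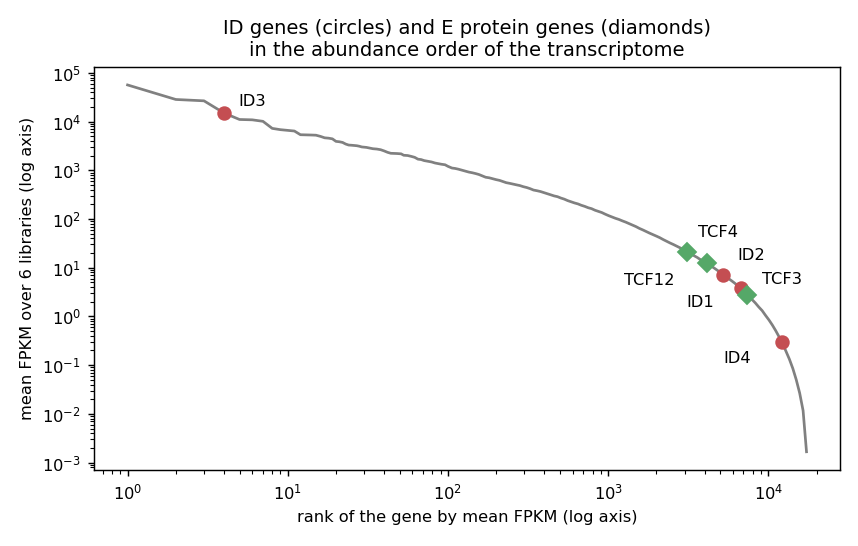
Mean FPKM over the 6 libraries against the rank of the gene (grey line, all genes; both axes logarithmic), with the 4 ID genes as circles and the 3 E protein genes as diamonds. ID3 lies at rank 4 with 14976 FPKM, and the other 6 genes lie between rank 3112 (TCF4) and rank 12116 (ID4).

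The other ID genes were far lower than ID3. ID2 was at 9.29, 3.87 and 5.76 FPKM in NC 1, 2 and 3 and at 7.03, 7.21 and 10.09 in siMTFP1 1, 2 and 3. NC 2 was the lowest and siMTFP1 3 the highest, and the value of NC 1 lay above 2 of the 3 libraries labelled siMTFP1. ID3 exceeded ID2 by 1513-fold to 3695-fold within a library.

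ID1 was the most variable of the 6 members that reached a mean of 1 FPKM. Its FPKM was 7.06, 0.54 and 1.01 in NC 1, 2 and 3 and 1.02, 10.15 and 2.73 in siMTFP1 1, 2 and 3. One library of each label, NC 1 and siMTFP1 2, stood above the rest, and the highest value was 18.8 times the lowest. ID4 was at 0.25, 0.08 and 0.24 FPKM in NC 1, 2 and 3 and at 0.13, 0.6 and 0.51 in siMTFP1 1, 2 and 3. It had the lowest mean of the 7 genes, 0.302 FPKM, and its groups overlapped. ID1, ID2 and ID4 together gave 4.49 to 17.96 FPKM per library, and ID3 made up 99.89% to 99.97% of the summed ID level.

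**Figure D2:**
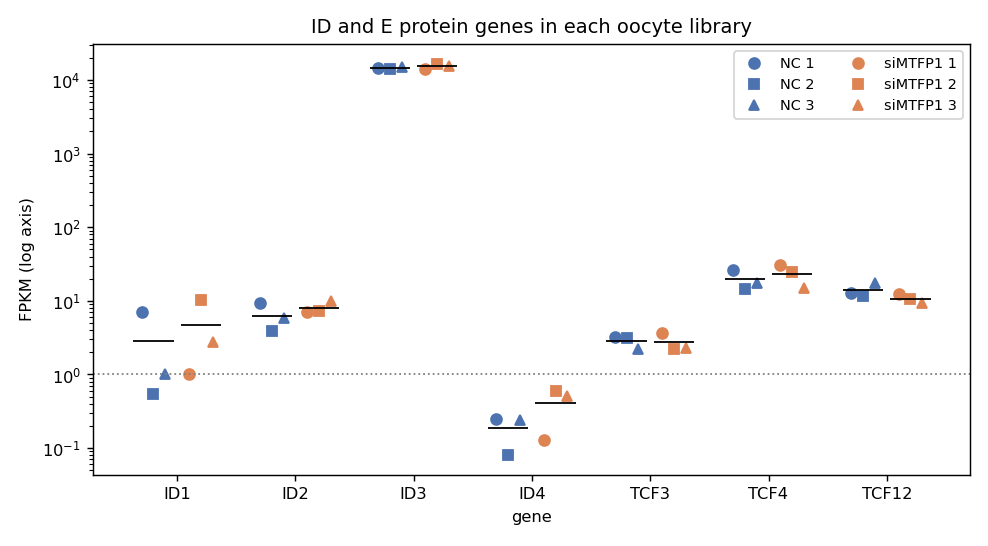
FPKM of each of the 7 genes in each library (log axis), with blue for NC, orange for siMTFP1, a symbol for each replicate number and black bars for group means; the dotted line marks 1 FPKM. ID3 lies at 14218 to 16702, ID4 stays below 1, and the groups overlap in all 7 genes.

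Some markers of follicle stroma were high in the libraries with the highest ID1, and others were not. Of 9 matched theca and stroma markers 4 to 8 were above 0 per library, with a sum of 7.41 to 16.01 FPKM in the libraries labelled NC and 7.73 to 35.64 in those labelled siMTFP1. LUM, a matrix proteoglycan singled out from that list after its values were seen, was at 7.39, 0.38 and 0.61 FPKM in NC 1, 2 and 3. In siMTFP1 1, 2 and 3 LUM was at 0.49, 22.85 and 1.24 FPKM. The same 2 libraries, siMTFP1 2 and NC 1, were thus the highest for LUM and for ID1, siMTFP1 3 followed them for both, and NC 2 was the lowest for both. TAGLN, a smooth muscle gene, was at 6.87 FPKM in siMTFP1 2 and at 0 to 0.31 in the other 5 libraries. ACTA2, smooth muscle actin, went the other way, at 4.95 FPKM in siMTFP1 2, its lowest value, and up to 11.53 in siMTFP1 3. DCN, a second matrix proteoglycan, was at 0 in siMTFP1 2 and at 0.41 FPKM in NC 1, with COL1A1 at most 0.14 and the theca enzyme CYP17A1 at most 0.09 in any library. Of the cumulus and granulosa list, INHA (15.65 FPKM) and SERPINE2 (43.06) were also highest in siMTFP1 2, as was the sum that includes them. Other markers of that list were not. PTX3 (1.44 FPKM) and CYP19A1 (0.1) were lowest in siMTFP1 2. TNFAIP6 was highest in NC 3 (17.14 FPKM), CYP11A1 in siMTFP1 3 (13.43) and HSD3B1 in NC 1 (7.51). Whether RNA of such cells contributed to ID1 was not tested, and in bulk libraries fewer cells of a type and less RNA per cell cannot be told apart. ID3 was also highest in siMTFP1 2, and its highest value was 1.17 times its lowest. ID2 was highest in siMTFP1 3.

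**Figure D3:**
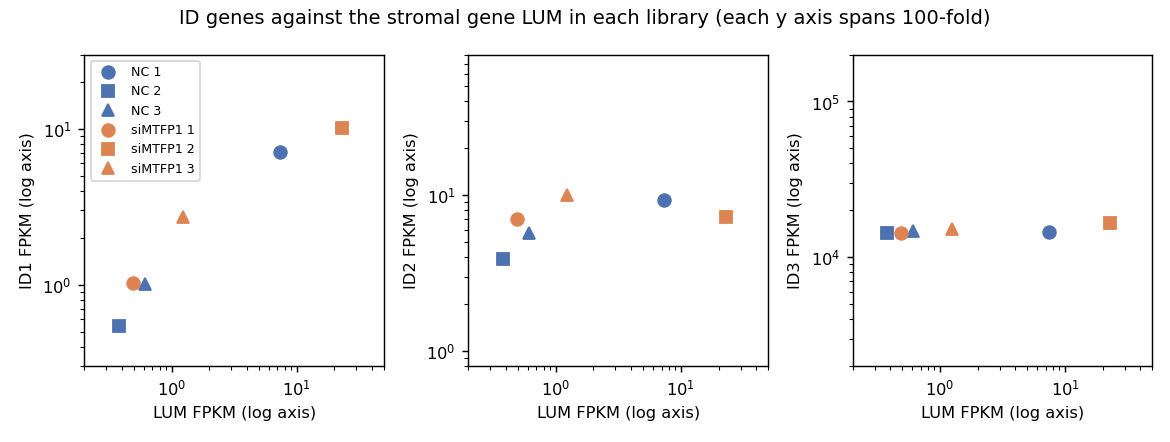
FPKM of ID1, ID2 and ID3 against the FPKM of the stromal gene LUM, a point per library (blue NC, orange siMTFP1, symbol by replicate number), on log axes whose vertical range is 100-fold in each panel. ID1 runs from 0.54 to 10.15 FPKM as LUM goes from 0.38 to 22.85, and ID3 stays between 14218 and 16702. LUM was singled out after its values were seen. Other stroma markers did not share its order, with ACTA2 lowest (4.95 FPKM) and DCN at 0 in siMTFP1 2.

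Among the E protein genes TCF4 had the highest and TCF3 the lowest level in every library. TCF4, which encodes the E protein E2-2 and is a different gene from TCF7L2 of the Wnt pathway that shares its alias, was at 26.61, 14.39 and 17.67 FPKM in NC 1, 2 and 3. In siMTFP1 1, 2 and 3 TCF4 was at 30.4, 24.54 and 14.98 FPKM. Each label held both high and low libraries, and the groups overlapped. TCF12, which encodes HEB, was at 12.67, 11.49 and 17.41 FPKM in NC 1, 2 and 3. In siMTFP1 1, 2 and 3 TCF12 was at 12.27, 10.69 and 9.3 FPKM. NC 3 was the highest, and NC 2 lay below siMTFP1 1. TCF3, which encodes the E2A proteins, was at 3.18, 3.16 and 2.21 FPKM in NC 1, 2 and 3 and at 3.71, 2.2 and 2.26 in siMTFP1 1, 2 and 3. Both labels had a library above 3 FPKM and a library near 2.2. TCF4 made up 47.4% to 65.6% of the summed E protein level, TCF12 26.5% to 46.7% and TCF3 5.88% to 10.9%.

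By mean over the 6 libraries the order of levels was ID3, TCF4, TCF12, ID2, ID1, TCF3 and ID4. The lowest ID3 value lay above the highest TCF4 value, and the lowest TCF3 value above the highest ID4 value. The other neighbours in that order had overlapping ranges. TCF4 still exceeded TCF12 in 6 of 6 libraries, by 1.01-fold to 2.48-fold, whereas ID1 exceeded TCF3 in 3 of 6.

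Set against each other, the summed ID transcripts far exceeded the summed E protein transcripts. The genes were selected on the abundance of ID3, so this ratio too is given as a description with no test. The summed ID level was 344, 493 and 396 times the summed E protein level in NC 1, 2 and 3 and 307, 447 and 576 times in siMTFP1 1, 2 and 3. The lowest and the highest ratio were both in libraries labelled siMTFP1. Without ID3 the ratio was 0.155 to 0.502, so the excess of ID over E protein transcripts came from ID3. The summed E protein level was 36.3 ± 6.77 FPKM (SD, n = 3) in the libraries labelled NC and 36.8 ± 9.94 in those labelled siMTFP1. These are transcript levels, and protein was not measured.

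Between the labels none of the 7 genes showed a difference that passed the test, and their groups overlapped. The comparison was made with limma on log2(FPKM + 1) over 9730 genes whose mean reached 1 FPKM, as it did for 6 of the 7 members but not for ID4. With limma and Benjamini-Hochberg adjustment over all tested genes, 0 of the 6 passed 0.05, where 0% of all tested genes passed. At an unadjusted limma p under 0.05 there were 0 of 6, against 6.53% of all tested genes (3.86% higher and 2.66% lower under the label siMTFP1). Groups without overlap were also seen for 0 of 6, against 11% of all tested genes. A higher mean log2 level under the label siMTFP1 was found for 4 of the 6, ID1, ID2, ID3 and TCF4, and for 54.2% of all tested genes.

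The widest differences in either direction were those of ID1 and TCF12. ID1 had a mean of 2.87 ± 3.64 FPKM (SD, n = 3) under the label NC and 4.63 ± 4.85 under siMTFP1. The log2 difference of ID1 was 0.58 (SE 0.72, adjusted p = 0.929 by limma), and it turned to -0.090 without siMTFP1 2. The means of TCF12 were 13.9 ± 3.13 and 10.8 ± 1.49 FPKM. Its log2 difference of -0.33 had an SE of 0.19 (adjusted p = 0.839 by limma).

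ID3 had means of 14558 ± 241 FPKM (NC) and 15394 ± 1247 FPKM (siMTFP1). On the log2 scale the difference came to 0.08 (SE 0.10, adjusted p = 0.929 by limma). The 95% interval from -0.14 to 0.30 corresponds to 0.906-fold to 1.23-fold, so this comparison bounds the ID3 difference more tightly than that of any other of the 6 tested genes. The width depended on the filter, and in the fit without a filter the SE of ID3 was 0.16 and its interval -0.30 to 0.46. Without siMTFP1 2, the library with the highest ID3, the ID3 difference was 0.02.

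For ID2 the means were 6.31 ± 2.75 and 8.11 ± 1.72 FPKM, 0.37 apart on the log2 scale (SE 0.27, adjusted p = 0.884 by limma). TCF4 stood at 19.6 ± 6.32 and 23.3 ± 7.78 FPKM, 0.23 apart (SE 0.29, adjusted p = 0.931 by limma). TCF3 was nearly level, at 2.85 ± 0.554 and 2.72 ± 0.855 FPKM with a log2 difference of -0.06 (SE 0.21, adjusted p = 0.980 by limma). ID4, too low for the filtered comparison, was read from a limma fit of all genes, with a log2 difference of 0.24 (SE 0.14, adjusted p = 0.876). A log2 difference of 1 lies inside the 95% interval of ID1 and outside those of the other 5 tested genes, with ID2 close to it at an upper bound of 0.99. In the fit without a filter the upper bound of ID2 was 1.07. On log2(FPKM + 1) the same difference stands for a larger ratio of FPKM in a low gene such as ID2 than in a high gene.

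**Figure D4:**
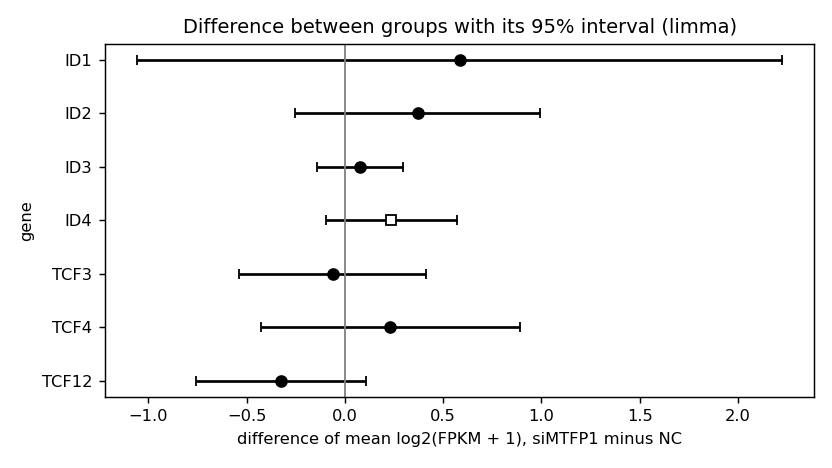
Difference of the mean log2(FPKM + 1), siMTFP1 minus NC, with its 95% interval from limma for each of the 7 genes (3 libraries per group); the open square marks ID4, taken from the fit without a filter on low values. All 7 intervals include 0. Among the 6 genes of the filtered fit that of ID3 is the narrowest (-0.14 to 0.30) and that of ID1 the widest (-1.06 to 2.22). In the fit without a filter the interval of ID3 ran from -0.30 to 0.46 and that of ID4 from -0.10 to 0.57.

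Transcripts of several bHLH factors listed as partners of E proteins were more abundant than the E protein transcripts. Of 49 listed tissue-specific partners 43 were matched and 13 reached the filter. The highest was MYF5, a factor known from skeletal muscle, at 659, 1040 and 840 FPKM in NC 1, 2 and 3 and 1365, 918.5 and 1098 in siMTFP1 1, 2 and 3. The libraries overlapped between the labels, as NC 2 lay above siMTFP1 2. FIGLA had means of 144 ± 8.47 (NC) and 161 ± 61.3 FPKM (siMTFP1; SD, n = 3), 0.08 apart on the log2 scale (adjusted p = 0.979 by limma). All pairs of means that follow are in the order NC, siMTFP1. Its level was 2.02 to 8.08 times the summed E protein level within a library. SOHLH2, a germ cell bHLH factor, averaged 144 ± 5.62 and 132 ± 2.91 FPKM, and MESP1, known from early mesoderm, averaged 87.0 ± 7.67 and 99.9 ± 19.7. OLIG1, of the nervous system, averaged 4.43 ± 0.910 and 3.06 ± 0.145 FPKM, and BHLHA9, known from limb development, 8.65 ± 1.87 and 11.6 ± 0.807. Of the 13 tested partners 7 had a higher and 6 a lower mean log2 level in the libraries labelled siMTFP1, with a median difference of 0.08 against 0.02 over all tested genes. By limma 0 passed after adjustment. At an unadjusted p under 0.05 there were 0 higher and 1 lower, OLIG1, against 3.86% and 2.66% of all tested genes. Groups without overlap numbered 2 higher, with BHLHA9, and 3 lower, with SOHLH2 and OLIG1, against 5.97% and 5.05% of all tested genes.

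HES and HEY proteins are bHLH repressors best known as Notch targets, and 5 of 10 matched genes of this group were tested. HES1 was at 134.86, 132.38 and 212.91 FPKM in NC 1, 2 and 3 and at 118.47, 102.92 and 109.85 in siMTFP1 1, 2 and 3. All 3 libraries labelled siMTFP1 lay below all 3 labelled NC, as in the 5.05% of tested genes without overlap in that direction. The log2 difference of HES1 was -0.50 (SE 0.19), and it did not pass (limma adjusted p = 0.750). HES7 averaged 8.73 ± 1.22 and 11.4 ± 0.826 FPKM (SD, n = 3), without overlap in the other direction, as in 5.97% of tested genes, and did not pass either (limma adjusted p = 0.766). HEY1 averaged 53.1 ± 4.66 and 55.3 ± 15.9 FPKM and HEY2 42.4 ± 0.552 and 41.1 ± 7.09, both with overlap. Of the 5 tested genes 3 had a higher and 2 a lower mean log2 level, with a median of 0.03. With limma 0 passed after adjustment. An unadjusted p under 0.05 was reached by 0 higher and 1 lower, HES1, against 3.86% and 2.66% of all tested genes.

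Ligands and receptors of the BMP pathway, which drives ID transcription in many cells, were present. Of 33 matched genes 16 were tested, 8 with a higher and 8 with a lower mean log2 level and a median difference of 0.00. The limma test called 0 after adjustment and 0 had an unadjusted p under 0.05, against 6.53% of all tested genes. The oocyte ligand BMP15 averaged 2739 ± 403 and 2752 ± 323 FPKM (SD, n = 3), and its partner GDF9 288 ± 30.5 and 316 ± 33.6. The signal transducer SMAD1 averaged 50.8 ± 4.88 and 52.4 ± 3.73 FPKM, and the type I receptor ACVR1 31.2 ± 8.19 and 38.5 ± 8.44. The type II receptor BMPR2 averaged 2.24 ± 0.0404 and 1.68 ± 0.288 FPKM (log2 difference -0.28, limma adjusted p = 0.829). Its groups did not overlap, as in 5.05% of tested genes in that direction. The ubiquitin ligase SMURF1, which acts on SMAD proteins, averaged 3.17 ± 0.121 and 4.10 ± 0.929.

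Of 9 matched genes for the turnover of ID proteins 6 had a mean of at least 10 FPKM, and SMURF2 (4.33), COPS5 (3.67) and FZR1 (0.615) were lower. The anaphase-promoting complex, a ubiquitin ligase of the cell cycle, marks several ID proteins for decay, and USP1 is a deubiquitinase that protects them. ANAPC11, a subunit of that complex, averaged 924 ± 24.3 and 1096 ± 190 FPKM (SD, n = 3). CDC20, an activator of that complex, averaged 195 ± 4.64 and 235 ± 27.1 FPKM (log2 difference 0.26, limma adjusted p = 0.780). The subunit CDC27 averaged 94.3 ± 23.8 and 75.8 ± 7.79. Turnover of ID proteins was not measured. The groups of CDC20 did not overlap, as in 5.97% of tested genes in that direction. USP1 averaged 39.5 ± 4.17 and 39.4 ± 4.39 FPKM. PSMD10, a proteasome-associated protein, averaged 26.9 ± 5.65 and 18.6 ± 2.33 FPKM (limma adjusted p = 0.750). Of the 8 tested genes of 9 matched, 4 had a higher and 4 a lower mean log2 level with a median of 0.02. After limma adjustment 0 passed. An unadjusted p under 0.05 was reached by 0 higher and 1 lower, PSMD10, against 3.86% and 2.66% of all tested genes.

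Other proteins reported to bind ID proteins include those of the retinoblastoma family and the ETS factors ELK1, ELK3 and ELK4. Of 11 matched genes 8 were tested, 5 with a higher and 3 with a lower mean log2 level and a median of 0.04. By limma 0 passed after adjustment and 0 had an unadjusted p under 0.05, against 6.53% of all tested genes. The retinoblastoma gene RB1 averaged 4.54 ± 0.819 and 3.35 ± 0.450 FPKM (SD, n = 3, limma adjusted p = 0.801). Its groups did not overlap, as in 5.05% of tested genes in that direction. ELK1 averaged 13.3 ± 3.76 and 14.4 ± 1.80 FPKM, and ELK3 11.2 ± 2.53 and 11.8 ± 3.08. PAX8 was at 4.04 FPKM in siMTFP1 2, the library with the highest LUM and ID1, and at 0.43 to 0.85 in the other 5.

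Cofactors of E proteins include acetyltransferases, deacetylases and LIM-domain adaptors. Of 19 matched genes 16 were tested, 8 in each direction with a median log2 difference of 0.02. By limma 0 passed. An unadjusted p under 0.05 was reached by 1 higher, HDAC2, and 0 lower, against 3.86% and 2.66% of all tested genes. The deacetylase HDAC2 averaged 13.4 ± 1.92 and 18.6 ± 2.83 FPKM (SD, n = 3, limma adjusted p = 0.750), and the groups overlapped. The most abundant were HDAC3 at 217 ± 6.89 and 242 ± 26.3 FPKM and the LIM-only adaptor LMO4 at 212 ± 25.0 and 244 ± 36.8. LMO1, of the same family as LMO4, averaged 96.4 ± 16.4 and 89.5 ± 19.1 FPKM.

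Cyclin-dependent kinase inhibitors include some genes that E proteins activate in dividing cells, an activation that ID proteins counteract. All 7 listed were matched and 6 were tested, 4 with a higher and 2 with a lower mean log2 level and a median of 0.15. With limma 0 passed after adjustment. An unadjusted p under 0.05 was reached by 0 higher and 1 lower, CDKN2A, against 3.86% and 2.66% of all tested genes. CDKN2A averaged 16.0 ± 3.98 and 11.1 ± 1.02 FPKM (SD, n = 3, limma adjusted p = 0.764) with overlap. CDKN1B averaged 35.6 ± 1.55 and 29.8 ± 1.94 FPKM (limma adjusted p = 0.811), and CDKN1C 20.0 ± 5.56 and 24.0 ± 5.28. The groups of CDKN1B did not overlap, as in 5.05% of tested genes in that direction.

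Of the zona pellucida and oocyte genes linked to FIGLA and TCF3, 8 of 9 were matched and tested, 5 with a higher and 3 with a lower mean log2 level and a median of 0.03. The limma test called 0. An unadjusted p under 0.05 was reached by 0 higher and 1 lower, against 3.86% and 2.66% of all tested genes. The lower gene was ZP2, whose product is a zona glycoprotein. Its level was 4768, 4427 and 4503 FPKM in NC 1, 2 and 3 and 3111, 3053 and 3241 in siMTFP1 1, 2 and 3. The groups did not overlap, as in 5.05% of tested genes in that direction. The ZP2 difference was -0.54 on the log2 scale (siMTFP1 minus NC, SE 0.09, adjusted p = 0.447 by limma). Among the other zona genes ZP3 was at 323 ± 10.3 and 333 ± 36.8 FPKM (SD, n = 3) and ZP4 at 1119 ± 159 and 1094 ± 111. OOEP, a maternal effect gene, averaged 628 ± 19.3 and 644 ± 126 FPKM.

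**Figure D5:**
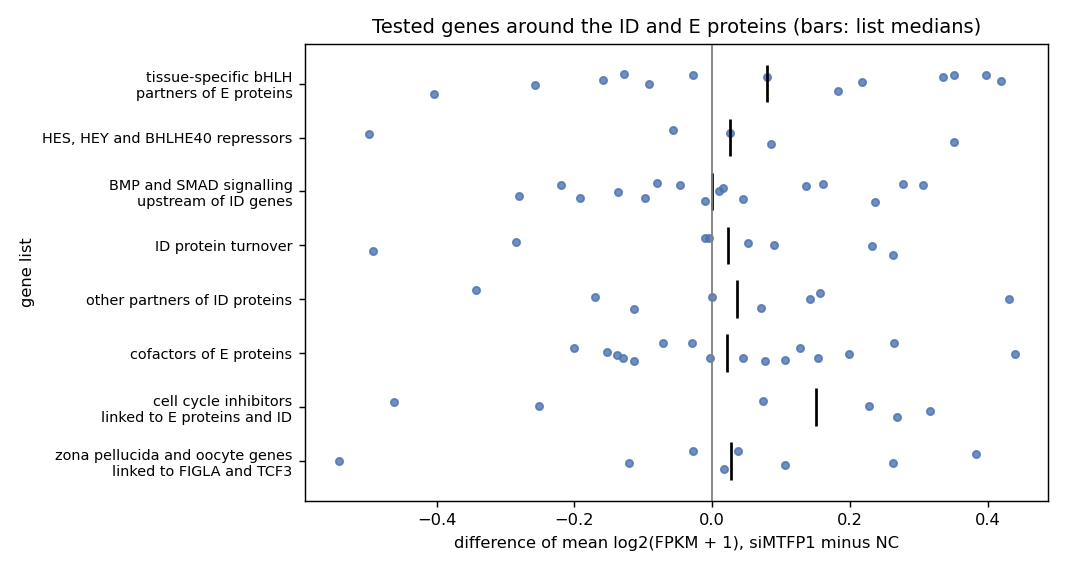
Difference of the mean log2(FPKM + 1), siMTFP1 minus NC, for each tested gene (points, spread vertically for legibility) of 8 lists around the ID and E proteins, with the median of each list as a black bar. The medians lie between 0.00 and 0.15, and each list holds genes on both sides of 0.

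The genes most like ID3, TCF4 and TCF12 across the 6 libraries were sought among 9260 tested genes with a named symbol, by Pearson r of log2(FPKM + 1). For ID3 they were SSSCA1 (r = 0.988), ZMYND11 (r = 0.973) and MLF2 (r = 0.967). These 3, like ID3, were highest in siMTFP1 2, where SSSCA1 was at 9.81 FPKM, ZMYND11 at 56.03 and MLF2 at 10.78. For TCF4 they were FYB2 (r = 0.998), SMC4 (r = 0.996) and RPP40 (r = 0.995), which like TCF4 were highest in siMTFP1 1, as with SMC4 at 31.39 FPKM. For TCF12 they were IL10RB (r = 0.998), CDC40 (r = 0.993) and MARCHF7 (r = 0.983), highest in NC 3 like TCF12, as with MARCHF7 at 113.9 FPKM. Correlations over so few libraries, which share depth and composition with the member, reach such values for many genes, and r was at least 0.95 for 13 genes with ID3, 44 with TCF4 and 17 with TCF12.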

How the data were processed

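The authors deposited FPKM values with 2 decimals for 17325 genes per library, made from TRIzol-extracted total RNA with a BGI mRNA library kit, per the labels' protocols. Build ARS-UCD1.2 and the tools RSEM 1.3.1, HISAT2 2.2.1, DESeq2 1.4.5 and Bowtie2 2.3.4.3 appear in the submitters' processing notes, without their roles. Strand use and the division of reads between similar genes are not given in the sources used here. RefSeq (ARS-UCD2.0) matched 17087 gene IDs and served for names and gene order only. It also restored symbols that had become dates (24). Groups follow the sample titles. limma 3.58.1 in R 4.3.3 (eBayes with trend, group as the only term) was fitted to log2(FPKM + 1) of 9730 genes whose mean FPKM reached 1, with Benjamini-Hochberg adjustment, after a test on simulated data. Fold changes on that scale are understated for low genes. FPKM keeps no read totals, so no counting interval is given. The members and lists were chosen with earlier results of these data known. Named genes are the members, MTFP1, and in each list FIGLA, up to 4 with the highest mean and 2 with the smallest p, and the 3 genes most like each member with a mean of at least 10 FPKM. Tables and plots used Python 3.11.15, pandas 2.3.3 and matplotlib 3.10.9.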

Additional observations from a re-analysis of the deposited data

How the results depend on the processing

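None of the 7 genes passed the adjusted threshold under any setting run: pseudocounts of 0.1 and 5, no filter or filters of 0.1 and 5, 3 scalings, the replicate block, array weights, robust eBayes, and leaving out each library. ID1 and TCF3 could not be fitted with the filter of 5, nor ID4 with filters of 1 or 5. Without NC 1, ID2 had an unadjusted limma p of 0.024 (adjusted p = 0.633), where 663 of 9730 tested genes were under 0.05. Without siMTFP1 1, ID4 had an unadjusted limma p of 0.0074 in the fit of all genes (adjusted p = 0.576). ID2, ID4, TCF4 and TCF12 kept their direction in all of these, with sizes that moved by over 1.5 times. Leaving out a library gave 0.11 (without NC 2) to 0.65 (without NC 1) for ID2, 0.02 (without siMTFP1 1) to 0.51 (without siMTFP1 3) for TCF4, and -0.44 (without NC 2) to -0.16 (without NC 3) for TCF12. It gave 0.14 (without siMTFP1 2) to 0.39 (without siMTFP1 1) for ID4, which ran from 0.06 to 0.73 over the pseudocounts, and 0.02 (without siMTFP1 2) to 0.13 (without siMTFP1 1) for ID3. Leaving out a library moved the log2 difference of ID1 between -0.090 (without siMTFP1 2) and 1.32 and that of TCF3 between -0.24 and 0.04. The TCF3 difference was above 0 without NC 1, without siMTFP1 2 and without siMTFP1 3. The ID3 difference was 0 under quantile normalization, because ID3 held rank 4 in each library. Over all tested genes, limma called 0 genes in the fit reported above and 2 with the filter of 5 or with FPKM rescaled to equal sums, and 0 to 2 when a library was left out. An unadjusted p under 0.05 was reached by 635 genes, against 1041 with no filter, 358 with the filter of 5, 1080 with array weights and 336 to 764 when a library was left out (336 without siMTFP1 2). Without both NC 1 and siMTFP1 2, a setting added after seeing that LUM was highest there, ID1 stood at 0.64, ID2 at 0.72, ID3 at 0.02 and TCF3 at 0.10, with 3 genes called and 394 at an unadjusted p under 0.05. ID2 was among the 394, with an unadjusted limma p of 0.032 (adjusted p = 0.999). Deviations of libraries with the same replicate number correlated at 0.03, -0.16 and 0.07. Those with unlike numbers ran from -0.26 (NC 1 with siMTFP1 3) to 0.23 (NC 1 with siMTFP1 2). The fit reported above had group as its only term and did not take the numbers as pairs. With the replicate block 0 genes were called, 630 had an unadjusted p under 0.05, and the ID3 adjusted p by limma was 0.894. The MTFP1 difference stayed above 0 under each setting run (0.09 to 0.96).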
